A study of Oryza sativa with 8 samples.

Results

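The Myb genes of rice were followed through roots and leaves of plants that overexpress OsbZIP83. They were taken as every gene row whose description holds the word Myb, leaving out OsLHY and OsLUX by symbol. Of 136 rows with the word, 1 was left out (OsLHY, listed also as OsCCA1), and 135 of 46120 gene rows remained. Plants of the cultivar Tsukinohikari grew in hydroponic culture with sufficient iron, a condition that all groups share. Each tissue gave 1 library of the non-transformant (NT) and 1 library of each separate OsbZIP83 overexpression line (b83OX-13, b83OX-15, b83OX-19), called lines 13, 15 and 19 here. The labels give neither the plants' age, nor the promoter driving the transgene, nor whether a sample pooled plants. Since each line is a transgenic line of its own, the lines served as the 3 replicates, and the p-values cover the spread among these libraries alone, part of which may be technical.

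Myb proteins bind DNA through 1 or more repeats of the Myb domain. Plants hold a large family of R2R3 proteins, which carry a pair of repeats and regulate phenylpropanoid metabolism, secondary wall formation, organ shape and stress responses. Smaller classes include the 3R proteins of the cell cycle, the MYB-CC proteins of phosphate signaling, the SHAQKYF class with a repeat of its own motif, and the single myb histone proteins, known from maize and Arabidopsis as binders of telomere repeats.

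By the listed domains or the description, 73 genes were of the R2R3 and 3R class and 22 were Myb/SANT-like. A further 11 were SHAQKYF genes, 4 MYB-CC genes, 4 single myb histone genes and 3 SWI3-type genes, whose products belong to chromatin remodelling complexes. Another 10 held a Myb domain of other kinds and 7 had no domain listed. The label of transcription factor does not cover all of them: NOL, a chlorophyll b reductase, was selected by its description alone and has no Myb domain listed.

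Values were reads per 1000000 (RPM) over the genes of a library. Lasy-Seq primes at the poly(A) tail and reads near the 3′ end, so a value is not divided by transcript length. Where genes are ordered below, the order is of RPM and not of levels per length. Depth was about 17000000 to 35700000 reads per library. OsbZIP83 (Os12g0152900) stood at 32.0 RPM in NT roots and at 154, 186 and 188 RPM in the lines, and at 1.62 RPM in NT leaves and 75.3, 100 and 95.0 RPM in the lines. Of 8 leaf markers, 7 were listed at 0 in every root library, and their sum was 69430 to 84110 RPM in leaves. The exception was OsCAB1R, which gave the NT roots their whole marker sum of 190.2 RPM and was at 0 to 3.95 RPM in roots of the lines. The sum of 7 root markers was 7052 to 9213 RPM in roots and 0 to 4.35 RPM in leaves. Given the apparent deduction described in the processing, a listed 0 need not mean that no reads were found.

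Of the 135 Myb genes, 16 were listed at 0 in all 8 libraries and 38 had a mean above 0 but under 1 RPM. The other 81 were tested. No untested gene passed 2.38 RPM in any library, a value reached by Os01g0128000. At a mean of at least 1 RPM, 57 genes were present in both tissues, 18 in roots only, 9 in leaves only and 51 in neither. In roots 41 tested genes reached 10 RPM and 7 reached 50 RPM. In leaves 31 reached 10 RPM and 0 reached 50 RPM. Low values rest on few reads, since 1 read was worth 0.028 to 0.059 RPM.

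**Figure D1:**
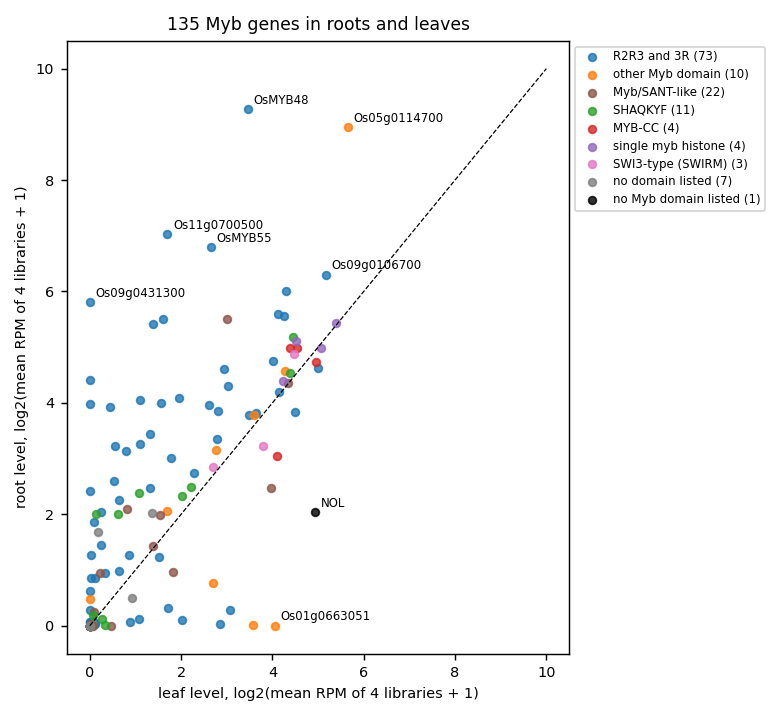
Each point is 1 of the 135 Myb genes, with its leaf level on the horizontal axis and its root level on the vertical axis, both as log2 of the mean RPM of 4 libraries plus 1; colours give the domain class and the dashed line marks equal levels. Points above the line are higher in roots, and OsMYB48 and Os05g0114700 stand highest, at 618 and 492 RPM in roots.

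Roots and leaves differed in most Myb genes, more often toward roots. Of the 81 tested genes 63 passed limma at an adjusted p under 0.05, 50 higher in roots and 13 higher in leaves. Over all genes tested 82.7% passed, 58.5% higher in roots and 24.2% higher in leaves, so the Myb genes did not exceed the background share. The filter averages both tissues, so a gene could enter it through the tissue where it is high. Of the 57 tested Myb genes that reached 1 RPM in roots and in leaves alike, 35 were called higher in roots and 6 higher in leaves. The median log2 difference, root minus leaf, was 0.65 over the Myb genes and 0.59 over all genes. Rescaling by TMM brought the median of all genes to 0.05 and the Myb split to 37 higher in roots and 28 higher in leaves, where 41.7% and 38.1% of all genes were called; the 37 and 13 of the 28 were those called in the same direction on the deposited scale. The difference between tissues is therefore read below against a median of all genes of 0.59. In 48 tested genes all 4 root libraries lay above all 4 leaf libraries, in 11 the reverse held, and in 22 the tissues overlapped. The shares were 59.3% and 13.6%, beside 55.4% and 22.8% of all genes tested. In a bulk tissue, fewer cells of a type and less RNA per cell cannot be told apart.

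Of the 50 root-high calls 33 were in the R2R3 and 3R class. Of its 45 tested genes 33 were higher in roots and 5 in leaves, beside 58.5% and 24.2% of all genes, or 30 and 9 after TMM rescaling, and its median log2 difference was 1.62. Several other classes had medians under that of all genes. The 4 single myb histone genes had a median of 0.10, the 4 MYB-CC genes 0.11, the 3 SWI3-type genes 0.15 and the 7 Myb/SANT-like genes 0.04. The 8 tested genes with a Myb domain of other kinds had a median of 0.23. After TMM rescaling the medians of these classes lay toward leaves. Calls were then 0 higher and 3 lower in roots for single myb histone genes, and 0 and 2 for MYB-CC genes. They were 0 and 3 for SWI3-type genes, 2 and 4 for Myb/SANT-like genes, and 1 and 5 for Myb domains of other kinds. Over all genes 41.7% were then higher in roots and 38.1% higher in leaves. Their class is a description of the annotation, and no difference between classes was tested.

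**Figure D2:**
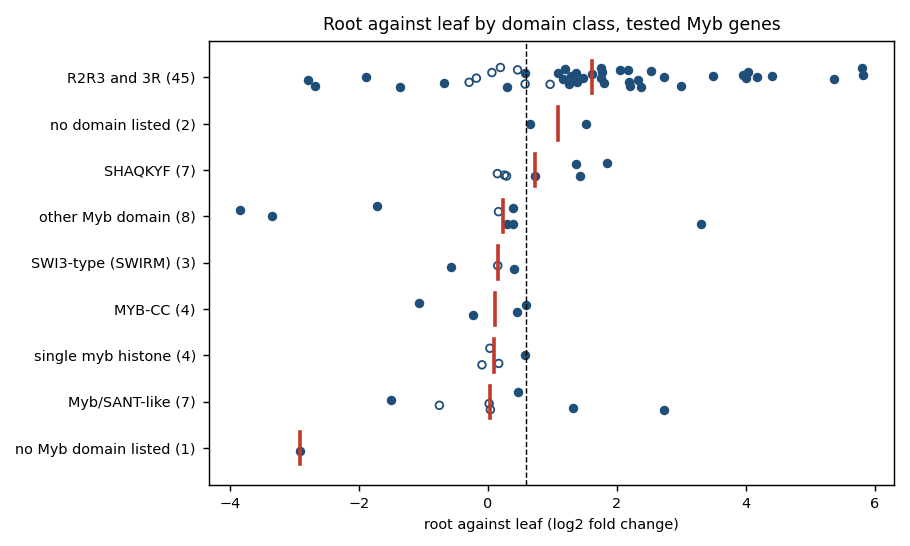
Log2 difference of root minus leaf for each tested Myb gene by domain class, with the number of tested genes in brackets; filled points passed limma, open points did not, red bars are class medians and the dashed line is the median of all genes at 0.59. The R2R3 and 3R class spreads from -2.79 to 5.82, and the medians of the other classes lie between -2.91 and 1.09.

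OsMYB48 (Os01g0975300), a drought-responsive R2R3 gene, had the highest root value of the Myb genes. Roots held 541 RPM in NT against 508, 712 and 712 RPM in lines 13, 15 and 19, against 6.80 RPM in NT leaves and 10.99, 13.1 and 9.47 RPM in leaves of the lines. Every root library was above every leaf library, and the log2 difference was 5.82 ± 0.19 (SE; limma adjusted p = 2.5e-09). With the apparent deduction described in the processing added back, it was 5.45. Os11g0700500, whose best Arabidopsis match is MYB59, averaged 129 ± 21.3 RPM in roots and 2.25 ± 1.03 RPM in leaves (SD, n = 4). OsMYB55 (Os05g0553400), known from rice for heat tolerance and amino acid metabolism, averaged 110 ± 7.0 RPM in roots and 5.33 ± 1.75 RPM in leaves.

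Some root genes were listed at 0 in leaves, which given that apparent deduction need not mean that no reads were found. Os09g0431300, matching Arabidopsis MYB87, had 58.3, 46.7, 59.8 and 54.8 RPM in the roots of NT and lines 13, 15 and 19 and was listed at 0 in all 4 leaf libraries. Os01g0722300, matching MYB68, a root gene in Arabidopsis, had 19.7, 18.5, 20.1 and 22.6 RPM in the same order and was also listed at 0 in leaves. Os04g0593200, matching MYB39, which acts in endodermal suberin formation in Arabidopsis, averaged 14.8 ± 3.02 RPM in roots and was listed at 0 in 3 of the 4 leaf libraries.

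Other root-high genes with known functions were OsMYB30, a cold tolerance regulator, and OsMYB2P-1 (Os05g0140100), which acts in phosphate starvation responses. OsMYB30 (Os02g0624300) averaged 44.3 ± 5.04 RPM in roots and 2.02 ± 1.37 RPM in leaves. OsMYB2P-1 averaged 41.7 ± 3.41 RPM in roots and 1.61 ± 0.24 RPM in leaves, a log2 difference of 4.03 ± 0.10 (SE). Os05g0114700, matching MYB21, had the most reads of the Myb genes in leaves. It held 427, 440, 545 and 557 RPM in roots and 42.9, 52.3, 44.1 and 56.9 RPM in leaves of NT and lines 13, 15 and 19, and each root library was above each leaf library.

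Leaf-high genes were fewer and included NOL. NOL (Os03g0654600), an enzyme of chlorophyll breakdown, averaged 3.10 ± 0.55 RPM in roots and 29.6 ± 2.05 RPM in leaves, a log2 difference of -2.91 ± 0.11 (SE; limma adjusted p = 8.7e-09). OsMYB4P (Os11g0558200), another gene tied to phosphate use in rice, averaged 0.0214 RPM in roots and 6.19 ± 1.60 RPM in leaves. The phosphate-linked pair OsMYB2P-1 and OsMYB4P thus lay on opposite sides of the tissue difference. Os01g0663051 was listed at 0 in all root libraries and had 21.5, 25.9, 8.69 and 6.30 RPM in leaves of NT and lines 13, 15 and 19. Os05g0567600, matching the RADIALIS-like gene RL6, ranged from 0 to 0.0401 RPM in roots and had 8.31, 22.2, 9.45 and 3.88 RPM in leaves in the same order. Leaf values of both genes varied widely and NT lay within the range of the lines.

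Among the MYB-CC regulators of phosphate starvation responses, OsPHR1 and OsPHR2 were higher in roots as deposited and OsPHR4 was higher in leaves, but after TMM rescaling OsPHR1 no longer passed (adjusted p = 0.97) and OsPHR2 changed sign. OsPHR1 averaged 30.6 ± 2.79 RPM in roots and 20.02 ± 2.71 RPM in leaves. OsPHR2, the main regulator in rice, averaged 30.6 ± 2.80 RPM in roots and 22.2 ± 1.16 RPM in leaves, a log2 difference of 0.45 that became -0.14 (adjusted p = 0.213) after TMM rescaling. OsPHR4 averaged 7.25 ± 0.74 RPM in roots and 16.3 ± 2.06 RPM in leaves. Of the single myb histone genes, Os01g0708000 averaged 42.1 ± 1.49 RPM in roots and 41.1 ± 1.64 RPM in leaves.

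The other small classes held genes read in both tissues. Of the SWI3-type genes, OsSWI3C (Os11g0183700) averaged 28.2 ± 0.84 RPM in roots and 21.03 ± 1.57 RPM in leaves, while OsCHB703 (Os04g0480300) averaged 8.31 ± 0.64 RPM in roots and 12.8 ± 1.25 RPM in leaves. After TMM rescaling all 3 SWI3-type genes were called higher in leaves, beside 38.1% of all genes. Of the 7 tested SHAQKYF genes 4 were higher in roots, near the 58.5% of all genes. After TMM rescaling 3 were higher in roots and 1 in leaves, beside 41.7% and 38.1% of all genes. OsARM1 (Os05g0442400, also MID1), a regulator of arsenite uptake in rice, averaged 3.03 ± 0.58 RPM in roots and 0.523 ± 0.39 RPM in leaves. Outside these classes, the MYB-CC gene OsMYBc (Os09g0299200) is a salt tolerance gene that acts on an HKT ion transporter gene. It averaged 25.6 ± 1.81 RPM in roots and 30.01 ± 1.95 RPM in leaves.

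**Figure D3:**
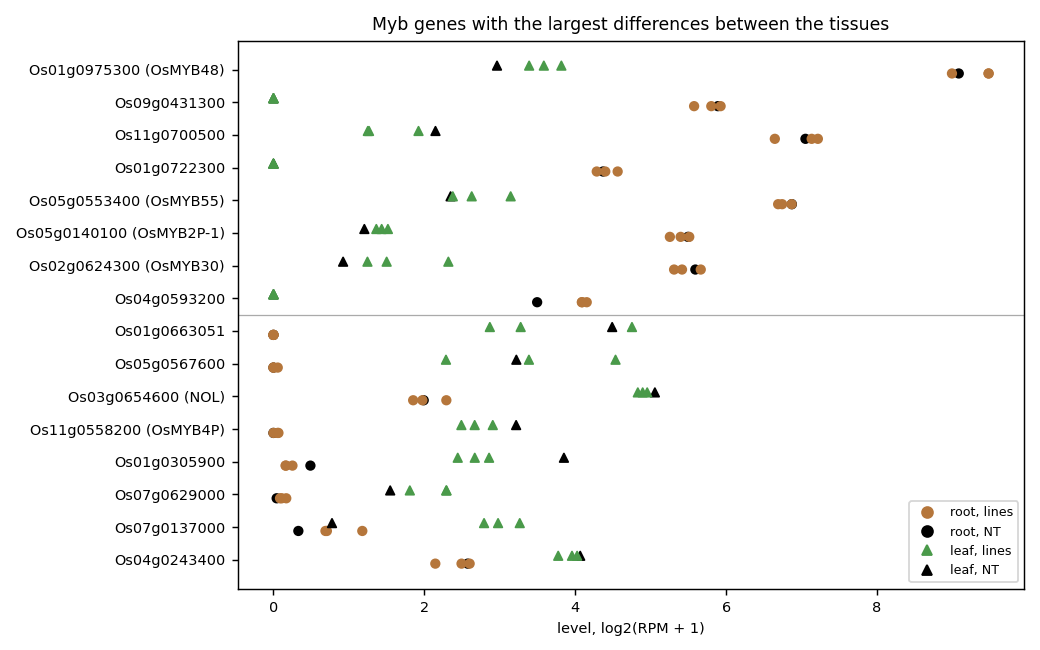
Level of the 8 Myb genes with the largest root-high differences (upper rows) and the 8 with the largest leaf-high differences (lower rows) in each library, as log2(RPM + 1); circles are roots, triangles leaves and black symbols NT. Root and leaf symbols are apart in every row except Os07g0137000, where the NT leaf value of 0.712 RPM lies among the root values.

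The next comparison asks which Myb genes differ between the OsbZIP83 lines and NT. In roots none passed the threshold. In leaves 10 passed, 7 higher and 3 lower than in NT, among them OsJAmyb, the rice jasmonate-responsive Myb gene, and OsMYB91, the rice counterpart of the Arabidopsis leaf gene AS1.

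In leaves limma called 10 of 81 tested Myb genes (12.3%), where 3.79% of all tested genes were called. The 7 higher genes compare with 2.66% called higher over all genes, and the 3 lower genes with 1.13% called lower. At an unadjusted p under 0.05 there were 24 Myb genes, 14 higher and 10 lower, or 29.6%, against 21% over all genes. The median log2 difference, lines minus NT, was 0.11 over the Myb genes and 0.09 over all genes. All 3 lines were above NT in 35 tested genes and below it in 20, and 26 were mixed. These 43.2% and 24.7% compare with 42.2% and 20.6% of all genes. NT is 1 library per tissue and was assumed to vary like the lines. Os07g0137000 and Os08g0496700 reached the filter at a mean of 1 RPM only through leaves of the lines, and averaged 0.695 and 0.827 RPM over the other libraries. Both are among the 10 genes called, and their calls support nothing by themselves.

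The number called in leaves depended on single libraries. Without the root library of line 13, 15 or 19, which enter through the shared spread, it was 4, 2 and 2. Without the leaf library of line 13, 15 or 19 it was 13, 6 and 5, and in a fit of the leaf libraries alone it was 0. All 10 kept their direction in each alternative run, while their calls were lost in 1 to 8 of the 14 or 15 alternatives per gene, least often in Os07g0137000 and Os07g0432800.

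The largest rise was in Os07g0137000, a gene with a Myb domain outside the R2R3 class that was tested only through leaves of the lines. In leaves it had 0.712 RPM in NT against 8.61, 6.87 and 5.92 RPM in lines 13, 15 and 19, and the log2 difference was 2.23 ± 0.26 (SE; limma adjusted p = 0.0072). All lines lay above NT. In roots it had 0.257 RPM in NT against 1.26, 0.612 and 0.633 RPM in the lines, a log2 difference of 0.53 that did not pass (adjusted p = 0.44).

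OsJAmyb (Os11g0684000) is induced by jasmonate in rice and is tied to defence and leaf cell death. Its leaf values were 3.84 RPM in NT against 13.1, 25.5 and 18.4 RPM in lines 13, 15 and 19, a log2 difference of 1.999 ± 0.32 (SE; limma adjusted p = 0.0189). In roots it had 27.8 RPM in NT against 27.5, 21.2 and 27.0 RPM in the lines. All lines were above NT in leaves and below it in roots, where the difference did not pass (limma adjusted p = 0.90). NT leaves were the lowest of the 8 libraries, and the leaf of line 15 lay within the range of the roots.

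Os02g0187700, Os06g0637500 and Os09g0106700 share a best Arabidopsis match, MYBR1 (MYB44), a stress-responsive repressor. Os02g0187700 rose from 10.02 RPM in NT leaves to 51.0, 35.5 and 27.2 RPM in lines 13, 15 and 19, a log2 difference of 1.77 ± 0.31 (SE; limma adjusted p = 0.0273). Its root values were 27.4 RPM in NT against 24.2, 24.5 and 18.7 RPM in the lines, so the lines were all above NT in leaves and all below it in roots.

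Os06g0637500 had 8.34 RPM in NT leaves and 24.1, 20.01 and 19.3 RPM in leaves of the lines, a log2 difference of 1.24 ± 0.19 (SE; limma adjusted p = 0.0185). Its root values were 60.6 RPM in NT against 49.4, 37.8 and 37.1 RPM in the lines. Os09g0106700 had 21 RPM in NT leaves and 45.7, 40.5 and 33.8 RPM in leaves of the lines, a log2 difference of 0.89 ± 0.17 (SE; limma adjusted p = 0.0394). Its root values were 92.5 RPM in NT against 80.3, 68.7 and 70.4 RPM in the lines. The direction in both genes was again up in leaves and down in roots, and the root differences did not pass (adjusted p = 0.28 and 0.46).

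These 3 were all the tested genes with this match, and 38 tested genes fell into 16 groups that share an Arabidopsis match. Among the other groups a call occurred in 1 of 2 genes matching MYB78 and in 1 of 3 matching MYB4. The grouping was made after the values were seen and was not tested. The calls in this group also depended on the scaling. After TMM rescaling Os09g0106700 did not pass in leaves (limma adjusted p = 0.082). With quantile normalization, which gives the libraries of a tissue the same distribution of values, neither Os09g0106700 nor Os02g0187700 passed (limma adjusted p = 0.052 to 0.087).

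Os07g0432800 had 2.49 RPM in NT leaves and 8.36, 7.95 and 7.87 RPM in leaves of the lines, a log2 difference of 1.37 ± 0.17 (SE; limma adjusted p = 0.0093). In roots it had 23.5 RPM in NT against 19.7, 22.9 and 26.9 RPM in the lines, with NT among the lines. Its description names a P-type R2R3 Myb fragment, but its best Arabidopsis match is RPOC2, a chloroplast gene, and no domain is listed, so it stands in the R2R3 and 3R class by its description alone. Os08g0496700, a Myb/SANT-like gene, rose from 0.333 RPM in NT leaves to 2.23, 3.74 and 3.79 RPM in the lines. The log2 difference was 1.65 ± 0.32 (SE, limma adjusted p = 0.0364), and this gene too was tested only through leaves of the lines.

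OsMYB91 (Os12g0572000, also OsRS2) was the most reduced called gene, and its Arabidopsis counterpart AS1 shapes leaves by repressing meristem genes. It had 8.05 RPM in NT leaves and 3.13, 1.86 and 2.43 RPM in leaves of lines 13, 15 and 19, a log2 difference of -1.40 ± 0.29 (SE; limma adjusted p = 0.0486). Root values were 7.48 RPM in NT against 3.96, 6.81 and 4.53 RPM in the lines, all below NT, but the difference did not pass (adjusted p = 0.51). The call of OsMYB91 in leaves held in 6 of its 14 alternative runs (limma adjusted p up to 0.27). OsMYB91 is also annotated for salt tolerance and adaptive growth in rice.

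Os01g0305900, matching MYB12, which activates flavonol synthesis in Arabidopsis, fell in leaves. It had 13.4 RPM in NT leaves and 6.25, 4.44 and 5.35 RPM in leaves of the lines, a log2 difference of -1.19 ± 0.19 (SE; limma adjusted p = 0.0197). The lines lay below NT, and root values were 0.404 RPM in NT against 0.191, 0.122 and 0.118 RPM in the lines. Os11g0180900, matching MYB4, a repressor of phenylpropanoid genes in Arabidopsis, had 4.23 RPM in NT leaves and 2.24, 1.69 and 1.64 RPM in leaves of the lines, a log2 difference of -0.88 ± 0.17 (SE; limma adjusted p = 0.0380). Its root values were 7.09 RPM in NT against 6.92, 7.03 and 7.22 RPM in the lines.

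**Figure D4:**
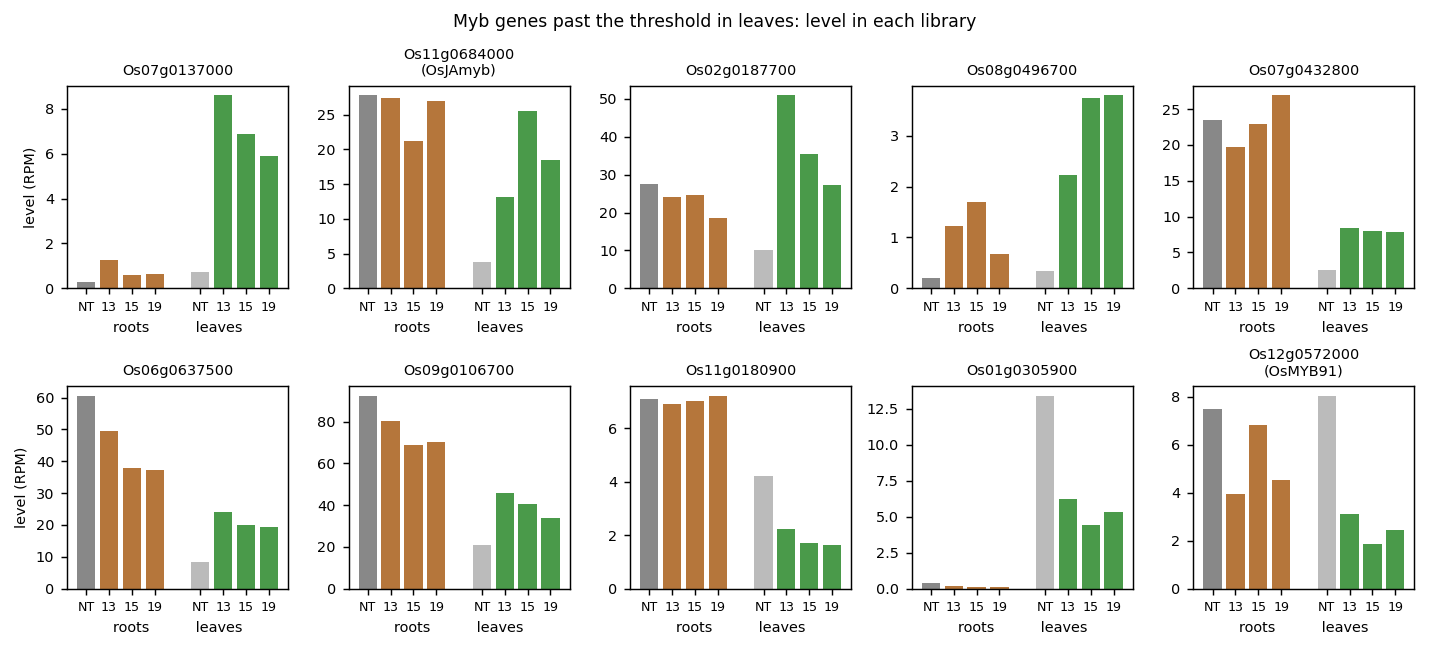
Level in RPM of the 10 Myb genes that passed limma in leaves, in each root library (left bars, grey NT and brown lines) and each leaf library (right bars, grey NT and green lines), ordered by log2 difference in leaves. In 7 panels the leaf lines stand above the NT leaf bar and in 3 below it, while no root difference passed.

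A count by size alone, without a test, took genes averaging 5 RPM or more in a tissue whose 3 lines all lay 2-fold or more above NT, or all as far below it. In leaves 7 of 43 such Myb genes met it, 5 higher and 2 lower, where 3.04% of all genes did. In roots 0 of 53 met it, where 1.12% of all genes did. The mean includes the lines, so Os07g0137000, OsJAmyb and Os07g0432800 reached 5 RPM through the lines alone and Os09g0248900 through NT alone, and the count supports nothing by itself. Of the 7, 6 were also called by limma. The other was Os09g0248900, a Myb/SANT-like gene, with 14.2 RPM in NT leaves and 5.14, 1.92 and 6.82 RPM in the lines, a log2 difference of -1.55 ± 0.48 (SE; limma adjusted p = 0.13).

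A further 14 Myb genes had an unadjusted p under 0.05 in leaves without passing, 7 higher and 7 lower, and those named here were chosen after their values were seen. OsMYB48 and Os12g0567300 share the best Arabidopsis match MYB48 and lay on opposite sides of NT. OsMYB48 had the leaf values given above, a log2 difference of 0.63 (limma adjusted p = 0.17). Os12g0567300 had 26.9 RPM in NT leaves and 18.5, 12.9 and 16.1 RPM in leaves of the lines, a log2 difference of -0.74 (adjusted p = 0.079). OsMyb10 (Os09g0401000), matching MYB20, had 0.207 RPM in NT leaves and 1.56, 1.79 and 1.03 RPM in leaves of the lines (adjusted p = 0.12). OsMYB52 (Os03g0720800), matching the wall gene MYB54, had 6.78 RPM in NT leaves and 5.16, 4.41 and 4.24 RPM in leaves of the lines (adjusted p = 0.19). In each of these 4 genes the lines did not overlap NT.

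The shift of each line over the tested Myb genes was small and close to that over all genes. In leaves the median log2 differences from NT were 0.10, 0.06 and 0.15 for lines 13, 15 and 19, beside 0.04, 0.06 and 0.15 over all genes. In roots it was -0.08, 0 and 0, beside -0.01, 0 and 0 over all genes.

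In roots 0 of 81 Myb genes were called by limma, where 1.16% of all genes were called. At an unadjusted p under 0.05 there were 7 (8.64%), 3 higher and 4 lower, against 13.5% over all genes, and the median difference was -0.03 for the Myb genes and 0 over all genes. The lowest adjusted p, 0.12, was for Os04g0593200. It had 10.3 RPM in NT roots and 16.02, 16.8 and 16 RPM in roots of the lines, all above NT, a log2 difference of 0.61 ± 0.14 (SE). It passed with a pseudocount of 5 RPM, at an adjusted p of 0.0313.

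The difference of the effects between the tissues, root minus leaf, was called for 0 of 81 Myb genes by limma, where 0.382% of all genes were called, and 11 had an unadjusted p under 0.05. The lowest adjusted p was 0.0524, for Os06g0637500, with a log2 difference of -1.79 ± 0.27 (SE). OsJAmyb, Os02g0187700 and Os09g0106700 had differences of -2.14, -2.06 and -1.23 (adjusted p = 0.10, 0.11 and 0.094). The rises in leaves are thus not shown to be particular to leaves. Without the leaf library of line 13, OsJAmyb passed (adjusted p = 0.0474).

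**Figure D5:**
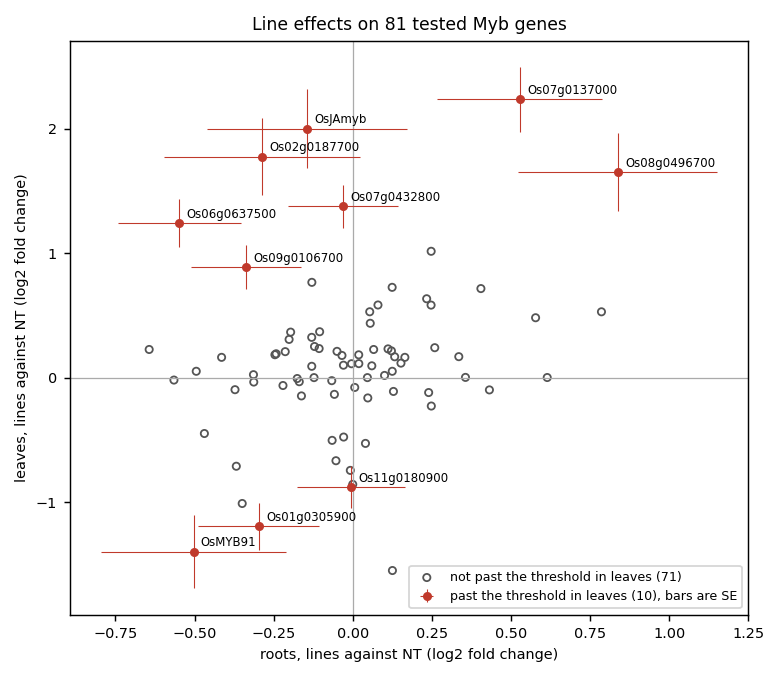
Log2 difference of lines minus NT in roots (horizontal axis) and in leaves (vertical axis) for the 81 tested Myb genes; red points with SE bars passed limma in leaves and open points did not. The red points spread from -1.40 to 2.23 on the leaf axis and from -0.55 to 0.84 on the root axis.

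Of the tested genes placed by their known roles, OsJAmyb, OsMYB91 and OsMYBR1 (Os04g0583900) passed in leaves, where 3.79% of all genes were called. OsJAmyb was 1 of 2 tested genes of the jasmonate and defence list. OsMYB91 was 1 of 2 of the leaf and meristem form list, and stands with OsMYBR1 among the 10 of the stress, cold and drought list. The other role lists had 0 calls in leaves, and counts from lists this short support nothing by themselves. None of the tested role genes passed in roots, where 1.16% of all genes were called. Of the secondary wall regulators, OsMYB58/63 (Os04g0594100) had 3.65 RPM in NT leaves and 1.996, 1.11 and 0.949 RPM in the lines, a log2 difference of -1.01 that did not pass (limma adjusted p = 0.076). All 3 tested regulators of this list, with OsMYB61 (Os01g0285300) and OsMYB103L (Os08g0151300), were higher in roots; OsMYB61 averaged 9.88 ± 0.81 RPM there and 1.48 ± 0.96 RPM in leaves. The 6 tested wall genes that such regulators are known to act on, cellulose synthases, BC1, OsCAD2 and OsPAL1, were all higher in roots beside 58.5% of all genes, and none passed in the lines. In roots 4 of them, OsCESA4, OsCESA7, OsCESA9 and BC1, had an unadjusted p under 0.05, with all lines below NT and log2 differences of -0.83, -0.71, -0.73 and -0.70 (limma adjusted p = 0.30, 0.33, 0.24 and 0.36). Over all genes 13.5% had such a p in roots and 33.4% had all lines below NT, and these 4 differences share 1 NT root library. OsCESA4 had 79.2 RPM in NT roots and 50.7, 48.7 and 34.5 RPM in roots of the lines. OsPAL1, an entry enzyme of the phenylpropanoid pathway, had 4603 RPM in NT roots and 3378 ± 148 RPM in the lines (SD, n = 3; adjusted p = 0.52).

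Of the flavonoid genes, 2 of 8 matched were tested. Os01g0305900 fell in leaves, and a link between its fall and the flavonoid genes was not tested. OsCHS1, chalcone synthase and a target of flavonol Myb regulators, also fell there, against the same NT leaf library. It had 471 RPM in NT leaves and 180, 122 and 74.4 RPM in the lines, a log2 difference of -1.99 ± 0.40 (SE; limma adjusted p = 0.0434). OsCHI, chalcone isomerase, had 396 RPM in NT leaves and 258 ± 40.8 RPM in the lines, and did not pass (adjusted p = 0.097). The leaf marker OsRCA, Rubisco activase, fell in the same leaves (adjusted p = 0.0341) while the other 7 leaf markers did not pass there, and its part in these differences was not tested.

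Of the phosphate regulators, 0 of 4 tested were called in either tissue, lines against NT. Over all genes 1.16% were called in roots and 3.79% in leaves. With 4 genes this count shows nothing. OsPHR3, outside the Myb rows and named after its values were seen, had all lines above NT in both tissues. Its log2 differences were 0.487 in roots and 0.397 in leaves. Neither passed (limma adjusted p = 0.206 and 0.175, unadjusted p = 0.0112 and 0.0275). In the lines OsPHR1 lay below NT in roots and above it in leaves, OsPHR2 the reverse, and OsPHR4 was mixed. Of the 10 tested genes of the stress, cold and drought list, 1 was higher and 1 lower in leaves, beside 2.66% and 1.13% of all genes. OsMYB91 was lower (limma adjusted p = 0.0486). OsMYBR1 (Os04g0583900), outside the Myb rows by description, had 1.34 RPM in NT leaves and 4.16 ± 1.08 RPM in the lines (SD, n = 3, limma adjusted p = 0.0454). Both calls lie near the threshold of 0.05. OsMYB3R-2, a cell cycle Myb gene, averaged 18.6 ± 2.22 RPM in roots and 7.20 ± 1.18 RPM in leaves and was not called in the lines in either tissue.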

How the data were processed

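The authors deposited 1 table of Lasy-Seq values with a column for each of the 8 samples. Its deposited values, named a normalized signal here, are reads per 1000000 (RPM); each of 3 row classes sums to 1000000 in each column. The tools listed are RSEM 1.2.21, Bowtie 1.2.3 and Trimmomatic 0.39, and the build is IRGSP-1.0, per the submitters' processing notes; no source used here gives their roles. Names, domains and Arabidopsis matches come from the table.

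The 21991 gene rows with a mean of at least 1 RPM were tested on log2(RPM + 1) with limma 3.58.1 in R 4.3.3 (lmFit, eBayes with a trend), with 4 group means, 4 residual degrees of freedom, two-sided tests and Benjamini-Hochberg adjustment over all of them. Root against leaf was fitted as 4 against 4 libraries. Fold changes understate those of low genes. TMM factors (trimmed means of log ratios) were computed on the RPM values for an alternative scaling. Python 3.11.15 (pandas 2.3.3, numpy 2.4.6, matplotlib 3.10.9) made the summaries.

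No test on counts was run, since only 45.5% to 61.2% of low values lay within 0.1 of a whole number of reads. In values of genes totalling 200 to 600 reads, 9.47% to 12.3% were whole as deposited and 46.5% to 53.7% once 0.134% to 0.146% of each gene's summed reads had been returned to every library, against 20% by chance. It resembles a deduction before deposit that no source used here describes, and it bears most on genes low in 1 tissue and abundant in the other. A value of exactly 0 is given as listed at 0.

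Groups came from the sample labels. Root and leaf libraries are paired by line, per the labels: deviations from the group means correlated at 0.177, -0.0334 and 0.127 for lines 13, 15 and 19 across 19837 genes. The genes and lists were chosen with earlier results of these data known. Named genes are every Myb gene past the threshold in a line comparison, the 8 largest differences each way between tissues, the 5 most abundant per tissue, the 2 most abundant per role list and those past the 2-fold rule; others, such as OsPHR4, OsMYB103L, OsSWI3C, OsCHB703, OsARM1, OsMYBc and Os01g0128000, were named after their values were seen. Of 52 role symbols 35 matched, of 18 partner symbols 17, and of 16 marker symbols 15. No tested Myb gene shared identical values with another gene.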

Additional observations from a re-analysis of the deposited data

Results flagged for a closer look

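Of 81 sets of 4 libraries checked for 1 value far from the rest, 5 were singled out, where chance gives about 1 in 20. Os07g0432800 was lowest in NT leaves, at 2.49 RPM. Os04g0593200 was lowest in NT roots, at 10.3 RPM, and OsJAmyb in roots of line 15, at 21.2 RPM. In leaves Os04g0593200 was above 0 only in line 19, at 0.00158 RPM, and in roots Os05g0567600 was above 0 only in line 15, at 0.0401 RPM, both near or under the value of 1 read.

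Of the tested Myb genes 11 had all lines below NT in roots and above NT in leaves (13.6%, beside 11.9% of all genes), and 2 the reverse (2.47%, beside 4.42%). The log2 difference of the effects, root minus leaf, was -2.06 in Os02g0187700, -1.79 in Os06g0637500, -1.23 in Os09g0106700 and -2.14 in OsJAmyb (Os11g0684000), all called in leaves. In limma the adjusted p of these differences was 0.11, 0.052, 0.094 and 0.10, so none passed. Other genes named above had smaller differences: -0.473 in OsMYB55, -0.422 in OsPHR1, -0.261 in OsSWI3C and, in the opposite direction, 0.36 in OsPHR2, with adjusted p of 0.59, 0.41, 0.44 and 0.33.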

How the results depend on the processing

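Of the 10 Myb genes called in leaves, 2 passed with no filter on low values. After TMM rescaling 9 of the 10 passed, and with quantile normalization within a tissue 8 did. Over all genes TMM rescaling gave 463 higher and 364 lower in leaves, beside 585 and 249 as deposited. With a filter at a mean of 5 RPM, which leaves 51 Myb genes to test, 5 of the 10 were tested and all 5 passed. None passed in a fit of the leaf libraries alone (adjusted p = 0.18 to 0.28), where fewer libraries share the spread. Leaving out 1 library gave 2 to 13 calls in leaves, and 0 to 1 for the difference between the tissues. In roots 1 gene passed with a pseudocount of 5 RPM, and 1 met the rule at 1.5-fold in place of 2-fold. The 2-fold count in leaves was 11 with a minimum mean of 1 RPM. Root against leaf gave 40 calls with the filter at 5 RPM. After TMM rescaling 18 Myb genes changed sign in root against leaf, 7 of which were called higher in roots as deposited. OsPHR2 was among these 7, at -0.14, a value that did not pass. With the line as a replicate block the counts were 10 in leaves, 0 in roots, 0 for the difference and 64 for root against leaf, and the block changed no other count.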
